A study of Homo sapiens with 4 samples.

Results

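The transcripts described here are those of NRF2 (gene NFE2L2), its sensor KEAP1 and 7 antioxidant genes, NQO1, GCLM, GCLC, TXNRD1, SRXN1, HMOX1 and OSGIN1. They were taken by gene symbol from array rows with exactly 1 symbol, and a gene with several such rows was represented by the brightest row. All 9 genes were found among 33458 genes on the arrays, each with 1 such row. A further row that carries NFE2L2 together with a second symbol was not used. RNA came from SAS, an established human tongue squamous carcinoma line, and was hybridized to 4 Clariom D arrays, a whole-transcriptome chip. There were 2 arrays of control cells, which the sample titles call scrambled controls, and 2 arrays of cells with stable C6orf141 overexpression. The overexpressing cells carried full-length C6orf141 in pLVX-IRES-Neo and were transfected for 48 h, then kept in G418 at 1200 μg/mL for 14 days. The sources used here do not say whether the control cells went through vector transfection and G418 selection, whether the stable line is 1 clone, or whether replicate arrays stand for separate cultures. Drug selection and C6orf141 overexpression therefore cannot be told apart on these arrays, and each p-value rests on array-to-array spread that may be purely technical.

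NRF2 is the transcription factor that switches on genes for glutathione, thioredoxin and quinone defence. In unstressed cells KEAP1 holds NRF2 on a cullin 3 ubiquitin ligase, and NRF2 is degraded as fast as it is made. Oxidants and electrophiles modify cysteines of KEAP1, NRF2 then accumulates, pairs with small MAF proteins and binds antioxidant response elements, whose core is written TGACNNNGC. Because this control acts on NRF2 protein, the amount of NFE2L2 RNA and the activity of the pathway need not move together, and its targets are the usual readout. Squamous carcinomas are among the tumours in which mutations of NFE2L2, KEAP1 or CUL3 keep the pathway switched on.

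The overexpressed gene, C6orf141, gave 8.57 and 7.92 (log2 signal) in control cells and 11.36 and 12.04 after overexpression, a log2 fold change of 3.46 with an adjusted p of 0.214 in limma. Array medians over the 135750 rows tested lay between 4.71 and 4.77. The level of silent genes was set at a log2 signal of 5.81, the 95th percentile of 400 olfactory receptor genes, and is called the background level below; the 95th percentile of the negative control rows reached 7.72. The squamous epithelial markers measured, 9 of 12, were all above the background level, among them KRT5, EPCAM, CDH1 and DSP. KRT14, with a mean of 7.29, lay within the range of the negative control rows. Of the other markers, 2 of 5 fibroblast, 2 of 5 leukocyte and 0 of 5 endothelial ones were above the background level. The fibroblast marker COL1A1 and the leukocyte marker CD68, with means of 9.09 and 10.65, were also above the negative control range. The control arrays were less alike than the overexpression arrays. Above the background level, 433 of 16146 genes differed by over 2-fold between control replicates 1 and 2, and 43 did so between overexpression replicates 1 and 2.

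RefSeq promoter windows of GRCh38.p14, from 250 bases before to 50 bases after a gene start, were searched for TGACNNNGC on both strands. Windows were found for 8 of the 9 genes, 11 windows in all, because NFE2L2, KEAP1 and TXNRD1 each had a pair of starts. The letters occurred in 4 of the 11 windows, beside 13.3% of all 35116 windows in the table. Both windows of TXNRD1 are among the 4, and in the pathway lists described below the share ran from 3.7% to 32.1%. The count is therefore no result about these genes. The 6 matches, in KEAP1, GCLM and TXNRD1, are shown to set the response element beside the signals of these genes. Each is printed along the gene's own strand with the match in capitals.
GCLM, chr1:93909445-93909474, minus strand, match from 34 bases before the start: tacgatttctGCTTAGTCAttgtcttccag
KEAP1, chr19:10502783-10502812, minus strand, match from 31 bases before the start: gcccggctctGCTTAGTCAtggtgacctgc
KEAP1, chr19:10502806-10502835, minus strand, match from 54 bases before the start: acttttattgTGACACGGCgggcgcccggc
TXNRD1, chr12:104286920-104286949, plus strand, match from 102 bases before the start: gtggatttctGCTTTGTCAttctgactctg
TXNRD1, chr12:104215670-104215699, plus strand, match from 99 bases before the start: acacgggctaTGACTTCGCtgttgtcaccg
TXNRD1, chr12:104215761-104215790, plus strand, match from 8 bases before the start: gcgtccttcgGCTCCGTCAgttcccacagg
GCLM and KEAP1 carried the same letters, GCTTAGTCA, on the reverse strand, and TXNRD1 carried a variant of them before its downstream start. No match stood in the windows of NFE2L2, NQO1, GCLC, SRXN1 and OSGIN1, which says only that these letters are not in the windows searched. A match is a description of sequence and not evidence of binding in SAS cells.

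By limma, none of the 9 genes passed as different under C6orf141 overexpression. These are bulk RNA values, so fewer expressing cells and less RNA per cell cannot be told apart. At an adjusted p below 0.05 limma called 0 of the 9, as it called 0% of the 33458 genes, and the adjusted p of each of the 9 was 1.00. At an unadjusted p below 0.05, 0 of the 9 were higher and 0 lower, against 1.04% of all genes that were higher and 1.07% that were lower. Of the genes above the background level 0.898% passed in either direction. The median log2 fold change over the 9 genes was 0.0022, beside −0.00036 over all genes, and 5 of the 9 differences were positive. The values of the groups did not overlap for 2 of the 9 genes, GCLC and HMOX1, whereas this was so for 29.4% of all genes and for 27.6% of those above the background level. A share of that size is near the background and is no result about these genes.

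**Figure D1:**
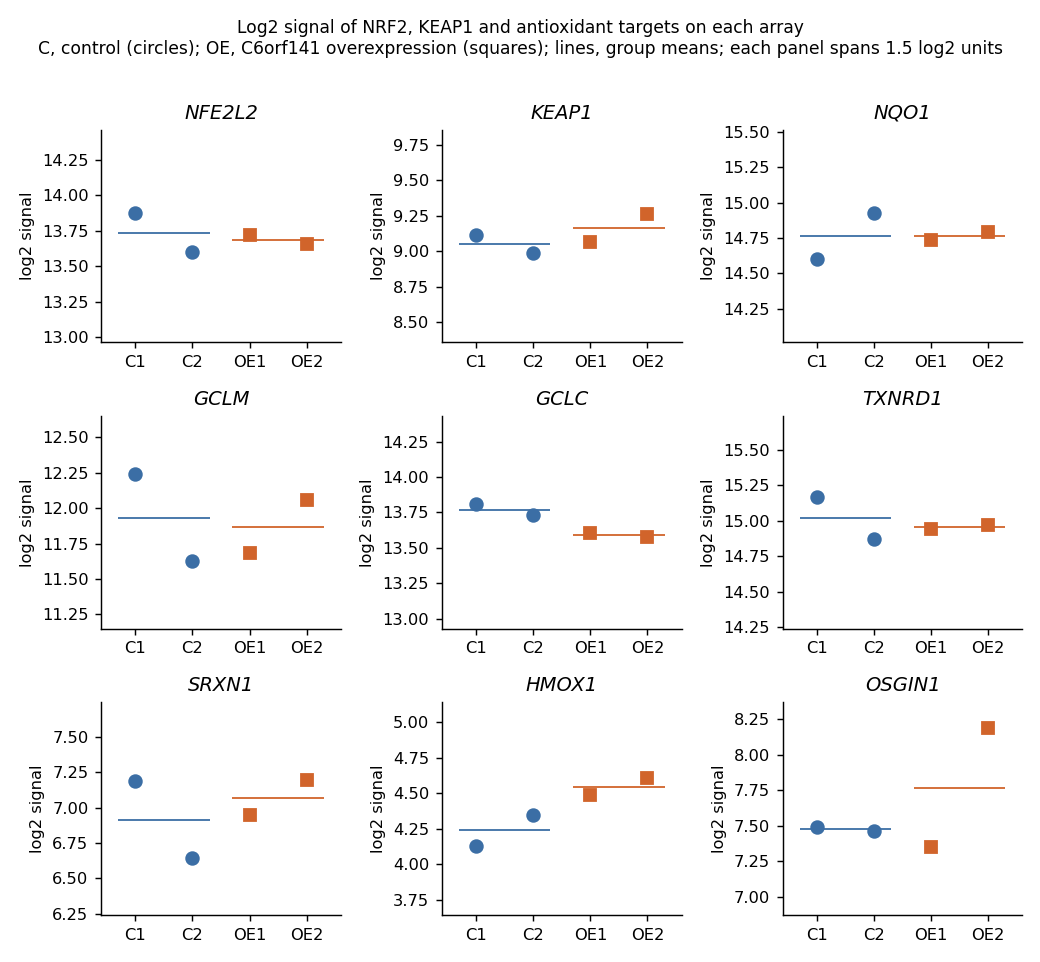
Log2 signal (vertical axis) of each of the 9 genes on control replicates 1 and 2 (C1 and C2, circles) and overexpression replicates 1 and 2 (OE1 and OE2, squares), with lines at group means and the same axis span in each panel. The groups overlap in 7 panels and are apart for GCLC and HMOX1. OSGIN1 stands out by a single overexpression array at 8.19.

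The groups overlapped for both regulators. NFE2L2 had log2 signals of 13.88 and 13.60 in control cells and 13.72 and 13.66 under C6orf141 overexpression. Both overexpression arrays lay between the control arrays. Overexpression minus control gave a log2 fold change of −0.05 with a 95% interval from −0.59 to 0.49, and it turned to 0.09 without control replicate 1. KEAP1, the adaptor that presents NRF2 to the ligase and itself a gene with the response element letters before a start, had 9.11 and 8.99 in control cells and 9.06 and 9.26 under overexpression. Its groups overlapped, since overexpression replicate 1 lay between the control arrays. KEAP1 had a log2 fold change of 0.11, with an interval from −0.41 to 0.64, and ran from 0.01 without overexpression replicate 2 to 0.21 without overexpression replicate 1.

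GCLC and GCLM encode the catalytic and the modifier subunit of glutamate-cysteine ligase, which makes the rate-limiting step of glutathione synthesis. GCLC had log2 signals of 13.81 and 13.73 in control cells and 13.60 and 13.58 under overexpression. Its groups did not overlap, and its 4 values spread less than those of any other of the 9 genes. The means were 13.77 ± 0.05 (SD, n = 2) and 13.59 ± 0.02 (SD, n = 2), a log2 fold change of −0.18 (standard error 0.22 in limma) with an interval from −0.69 to 0.33. With 1 array left out it ranged from −0.22 to −0.14. GCLC was the only one of these genes to pass the unadjusted threshold in a test of each gene on its own variance, without limma's shared variance, as 4.08% of all genes did. The limma standard error is set largely by the variance that all rows share, which is wider than the spread of GCLC.

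GCLM behaved unlike its partner subunit between arrays. It had log2 signals of 12.24 and 11.62 in control cells and 11.68 and 12.06 under overexpression. Control replicate 1 was high, control replicate 2 and overexpression replicate 1 were low, and both overexpression arrays lay within the control range. GCLM had a log2 fold change of −0.06, with an interval from −0.72 to 0.60, and it turned to 0.25 without control replicate 1 and to 0.13 without overexpression replicate 1.

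TXNRD1 encodes the cytosolic thioredoxin reductase, which passes electrons from NADPH to thioredoxin, and SRXN1 encodes sulfiredoxin, which repairs over-oxidized peroxiredoxins. TXNRD1 had log2 signals of 15.17 and 14.88 in control cells and 14.94 and 14.97 under overexpression. The overexpression arrays again fell within the control range. TXNRD1 had a log2 fold change of −0.07, with an interval from −0.60 to 0.47, and 0.08 without control replicate 1. SRXN1 had 7.19 and 6.64 in control cells and 6.95 and 7.19 under overexpression. It was lowest on control replicate 2, and its mean of 6.99 lay above the background level but within the range of the negative control rows. SRXN1 had a log2 fold change of 0.16, with an interval from −0.46 to 0.77, and −0.12 without control replicate 2.

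NQO1 encodes the quinone reductase that is the most widely used NRF2 target. Its log2 signals were 14.60 and 14.93 in control cells and 14.74 and 14.79 under overexpression. The group means were 14.76 ± 0.23 (SD, n = 2) and 14.77 ± 0.04 (SD, n = 2), and the overexpression arrays lay between the control arrays. The log2 fold change of 0.0022 had an interval from −0.54 to 0.55, which leaves changes up to 1.46-fold higher or to 0.687-fold undetected. Its sign turned to −0.16 without control replicate 1 and to −0.03 without overexpression replicate 2.

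HMOX1 encodes heme oxygenase 1, which breaks heme down to biliverdin, iron and carbon monoxide. It had log2 signals of 4.13 and 4.35 in control cells and 4.49 and 4.61 under overexpression. All 4 values lay under the background level, so the difference of 0.31 (interval −0.22 to 0.84) gets no direction of expression, although the groups did not overlap. OSGIN1 encodes an oxidative stress induced growth inhibitor. It had 7.49 and 7.46 in control cells and 7.35 and 8.19 under overexpression. Overexpression replicate 2 was high, and overexpression replicate 1 lay below both control arrays. The log2 fold change of 0.29 had an interval from −0.41 to 1.00 and turned to −0.13 without overexpression replicate 2. The mean of 7.62 was just within the range of the negative control rows.

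**Figure D2:**
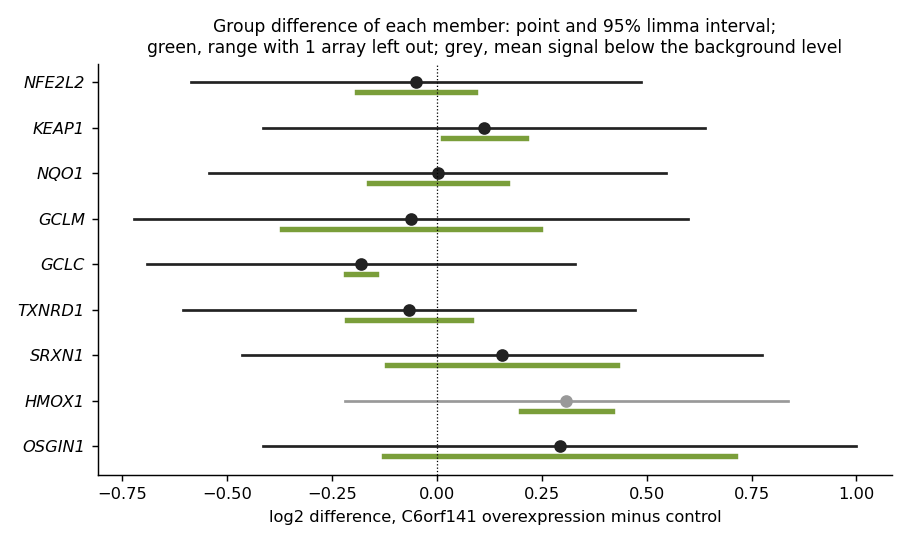
Log2 difference between C6orf141 overexpression and control (horizontal axis) for each of the 9 genes, as point and 95% interval from limma, with the range over the 4 fits that leave out 1 array in green and HMOX1, under the background level, in grey. Every interval spans 0; the green range stays on 1 side of 0 for KEAP1, GCLC and HMOX1.

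The precision of these comparisons can be read from the intervals. For the 8 genes above the background level they extended from 0.606-fold for GCLM to 2.00-fold for OSGIN1, with half-widths between 0.51 and 0.71 on the log2 scale. Of the 9 genes, 6 changed sign when a single array was left out and 3 kept it. Over all 33458 genes, 14129 kept their sign, so a change was common and is no result about the 9.

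For 6 of the 8 genes above the background level, all but GCLC and OSGIN1, the control arrays differed from each other by more than the group means did. The share of all genes with this trait was not computed, so the count is no result about these genes. The median absolute log2 gap over the 8 genes was 0.29 within control cells and 0.13 within overexpressing cells, beside 0.27 and 0.16 over all genes above that level. Control replicate 2 was below control replicate 1 for 7 of the 8 genes, the exception being NQO1, beside 56.9% of all genes above the background level. In the pathway lists described below it was lower for 90 of 147 genes above that level. The count of 7 comes from 1 pair of arrays and is no result about these genes. GCLM and SRXN1 had the widest gaps between the control arrays, −0.61 and −0.55 for replicate 2 minus replicate 1. A wider gap was found for 14.4% and 18.7% of genes above the background level. NQO1 had the opposite gap, 0.33. Between the overexpression arrays the widest gap was that of OSGIN1, 0.84 for replicate 2 minus replicate 1, and only 0.774% of genes above the background level had a wider one. GCLM followed with 0.38, SRXN1 with 0.25 and KEAP1 with 0.20. The gap in control cells had the opposite sign to that under overexpression for 5 of the 8 genes, against 59.8% of all genes above the background level. Which array departs from the others, and why, was not tested.

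**Figure D3:**
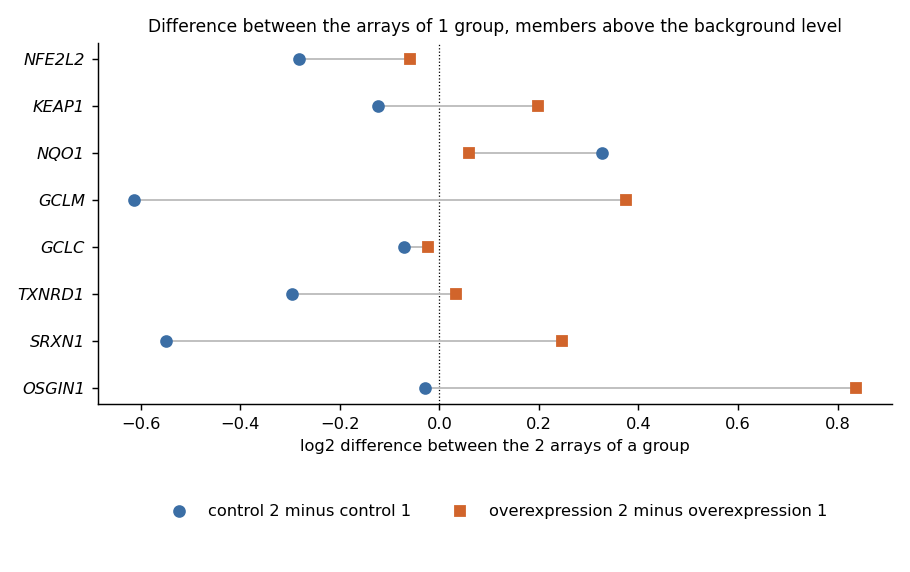
Log2 difference between replicate 2 and replicate 1 (horizontal axis) in control cells (circles) and under C6orf141 overexpression (squares) for the 8 genes above the background level, joined by a line per gene. GCLM and SRXN1 run from −0.61 and −0.55 in control cells to positive values under overexpression, NQO1 is positive in both groups, and OSGIN1 reaches 0.84 under overexpression.

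Other genes of the pathway were read from 7 lists, of which 174 of 185 genes were measured here and 147 were above the background level. At an unadjusted p below 0.05 limma called 0 of the 174 higher and 0 lower, against 1.04% and 1.07% of all genes. The groups did not overlap for 51 of the 174, a share near the 29.4% of all genes. The median log2 fold change over the 174 was 0.04. Single values of the genes above the background level ran from −0.40 for CBR4 to 0.45 for TXN2. NUPR1, within the range of the negative control rows, is left out of this span. Some list genes passed the unadjusted threshold under another setting. With the test of each gene on its own variance, which 4.08% of all genes passed, these were GSTZ1, MSRB1, IDH2, CBR4, CES1 and NUPR1. With trend and robust settings, where 2.05% of all genes passed, they were TXN2 and RPE, and in the fit on genes above the background level alone, where 1.98% of those genes passed, TXN2 and NUPR1. Among the named list genes, CUL3, DPP3, MSRB2, PGD, CYP2S1, SLC48A1 and PHGDH passed without control replicate 1, as 4.76% of all genes did. These shares cannot be compared. The 27 genes named by rule include, for each list, the gene with the widest gap between the control arrays. DPP3, MSRB2, PGD, CYP2S1, SLC48A1 and PHGDH are such genes, and a wide gap shifts the difference when a control array is left out. Their passing is therefore no result about the lists.

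Among relatives, partners and degraders of NRF2, 21 of 23 genes were measured, 19 of them above the background level, with a median log2 fold change of 0.05. Of those above the background level, the smallest p-values belonged to DPP3, a protein that competes with NRF2 for KEAP1, PALB2, a partner of BRCA2 that also binds KEAP1, and CUL3, the cullin of the KEAP1 ligase. DPP3 had log2 signals of 10.32 and 9.44 in control cells and 10.19 and 10.45 under overexpression. CUL3 had 13.68 and 14.48 in control cells and 13.72 and 13.87 under overexpression. Both were set apart by control replicate 2 alone, low for DPP3 and high for CUL3. DPP3 had a log2 fold change of 0.435, 0.88 without control replicate 1 and −0.0064 without control replicate 2, and that of CUL3 was −0.28, −0.68 and 0.12 in the same order. PALB2 had −0.23, and −0.07 without control replicate 1. SQSTM1, which sequesters KEAP1, and BACH1, a repressor that competes with NRF2 for its elements, had 0.16 and 0.06. MAFG, a small MAF partner, was under the background level on every array. MAFF, another small MAF in the list, had a mean of 6.65, above the background level but within the range of the negative control rows.

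In the glutathione list, 40 of 40 genes were measured, with a median log2 fold change of 0.05. Of these, 30 were above the background level, with a median of 0.03. GSTZ1, a transferase of tyrosine breakdown, had the smallest p, with 7.50 and 7.42 in control cells and 7.11 and 7.18 under overexpression. Its groups did not overlap, and the log2 fold change was −0.32. GGT1, which cleaves extracellular glutathione, had 0.23. GSTA4, which conjugates the lipid peroxidation product 4-hydroxynonenal, was above the background level on overexpression replicate 2 alone, at 6.12, so no difference is given for it. These 3 genes lay within the range of the negative control rows, as did CHAC1. CHAC1, which degrades glutathione in the cell, had a gap of −0.63 between the control arrays and a log2 fold change of 0.04, from −0.27 without control replicate 2 to 0.36 without control replicate 1. SLC7A11, the cystine transporter that feeds glutathione synthesis, had 14.23 and 13.84 in control cells and 14.00 and 14.08 under overexpression.

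In the thioredoxin and peroxide list, 21 of 22 genes were measured, with a median of 0.04. Of these, 18 were above the background level, with a median of 0.02. TXN2, the mitochondrial thioredoxin, had 11.59 and 11.30 in control cells and 11.94 and 11.85 under overexpression. Its groups did not overlap, with a log2 fold change of 0.45 and an interval from −0.09 to 0.99. Its p of 0.0892 was the smallest of the list in limma, and with trend and robust settings it was 0.0385, both unadjusted. The methionine sulfoxide reductases MSRA and MSRB1 had 0.36 and 0.29, with groups that did not overlap, but MSRA had 0.12 without overexpression replicate 2 and 0.17 as the mean of its rows. Their relative MSRB2 had 0.27, from −0.26 without control replicate 2 to 0.80 without control replicate 1, and MSRB3 had −0.09 with groups that overlapped. PRDX1, a peroxiredoxin, had 0.19, and TXN, the cytosolic substrate of TXNRD1, had −0.06.

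Of the NADPH-producing enzymes and the pentose phosphate pathway, 16 of 17 genes were measured, with a median of 0.05. Of these, 15 were above the background level, with a median of 0.03. RPE, the ribulose-phosphate epimerase, had 14.67 and 14.43 in control cells and 14.15 and 14.24 under overexpression. Its groups did not overlap, and the log2 fold change was −0.35. With trend and robust settings its p was 0.0468 without adjustment. ME2, a mitochondrial malic enzyme, had −0.31 and TALDO1, transaldolase, had 0.15. PGD, the second NADPH-producing enzyme of the pathway, had 12.17 and 10.73 in control cells and 11.49 and 11.62 under overexpression. The gap between its control arrays was −1.44, and its log2 fold change of 0.11 ran from −0.61 without control replicate 2 to 0.83 without control replicate 1.

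The detoxification list had 33 of 36 genes measured, with a median of 0.01. Of these, 26 were above the background level, with a median of 0.0007. CBR4, a mitochondrial quinone and ketoacyl reductase subunit, had 11.31 and 11.41 in control cells and 10.93 and 10.99 under overexpression. Its groups did not overlap, with a log2 fold change of −0.40 and an interval from −0.91 to 0.11. PIR, an iron-binding nuclear protein and known NRF2 target, had −0.32. CES1, a carboxylesterase, had 6.11 and 6.05 in control cells and 5.82 and 5.78 under overexpression, a mean under the background level in the latter and within the range of the negative control rows in both groups, so no size of difference is given. CYP2S1, a cytochrome P450, had a gap of −1.40 between the control arrays, and its log2 fold change of 0.32 ran from −0.38 without control replicate 2 to 1.02 without control replicate 1. The aldo-keto reductases AKR1C1, AKR1C2 and AKR1C3 share much of their sequence, so their rows may not be independent. Like NQO1, these 3 were higher on control replicate 2 than on replicate 1, by 0.72, 0.82 and 0.385. Of the 26 genes of this list above the background level, 9 were higher on control replicate 2 and 17 lower. The log2 fold changes of AKR1C1, AKR1C2 and AKR1C3 were 0.07, 0.04 and −0.06.

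For heme and iron, 19 of 21 genes were measured and 15 were above the background level, with a median of −0.05. ABCB10, a mitochondrial transporter, BLVRA, a biliverdin reductase, and FTL, the ferritin light chain, had −0.24, −0.23 and 0.21. Without control replicate 1 ABCB10 and FTL had −0.04 and 0.06, and without control replicate 2 BLVRA had −0.03. SLC48A1, a heme transporter, had 9.71 and 7.68 in control cells and 8.85 and 9.33 under overexpression. Its gap of −2.03 between the control arrays was the widest of all named genes, and its log2 fold change of 0.39 ran from −0.62 without control replicate 2 to 1.41 without control replicate 1. As the mean of its rows it had 0.18. The last list held other stress genes, those of the ATF4 pathway, metallothioneins and inducible heat shock genes, with 24 of 26 measured, all 24 above the background level, and a median of 0.12. NUPR1, a small stress-induced chromatin protein, had 6.17 and 6.20 in control cells and 5.67 and 5.84 under overexpression. Its overexpression mean was under the background level and all values lay within the range of the negative control rows, so no size of difference is given. CEBPB, a transcription factor, had 0.41, BAG3, a chaperone partner, had 0.27, and PHGDH, the entry enzyme of serine synthesis, had 0.31, from −0.16 without control replicate 2 to 0.78 without control replicate 1. Over these 24 genes, 18 differences were positive and 6 negative, beside 16706 positive differences among all 33458 genes, and 0 passed in limma. Genes of this list, such as the metallothioneins, may not be independent of each other, so these counts are no result about the 24. Control replicate 2 was below control replicate 1 for 16 of the 24, and with 1 array left out their median ran from −0.00023 to 0.24.

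**Figure D4:**
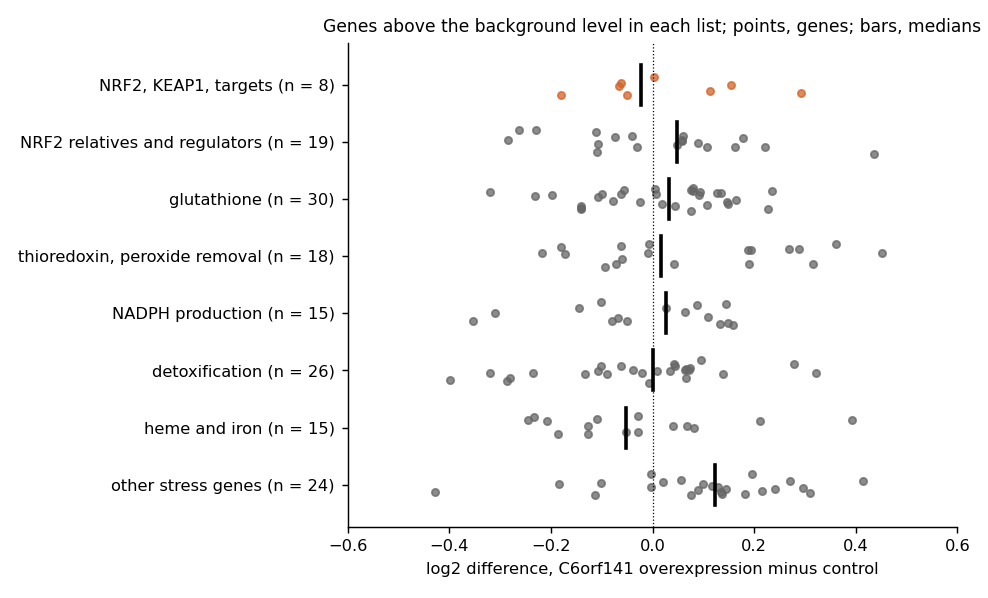
Log2 difference between C6orf141 overexpression and control (horizontal axis) for genes above the background level in the 9-gene set and in the 7 lists, 1 point per gene, with a bar at the median and the number of genes beside each name. List medians lie between −0.05 and 0.12, and the points of every list fall on both sides of 0.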

How the data were processed

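Per the labels and the methods, the authors labelled RNA with WT PLUS reagents, hybridized it to Clariom D arrays, made gene-level values in Expression Console and compared groups in Partek. The authors deposited log2 signals, 1 per transcript cluster and array, and these were used as they are. The sources used here name neither the summarising algorithm nor the normalization or versions. The 2995 array control rows were dropped. Rows were named through GEO's platform annotation, with 623 older symbols updated through the RefSeq table of GRCh38.p14. Some list genes are not analysed here. The fit ran over all 135750 rows in limma 3.58.1 (R 4.3.3; lmFit and eBayes, two-sided), with Benjamini-Hochberg adjustment over 33458 genes and a threshold of 0.05. The test run in Partek is not named, so Student's t-test, which tests each gene on its own variance, was run as an alternative. Genes, lists and tests were chosen with earlier results of these data known. Besides the 9 genes, the rule named list genes above the background level with an unadjusted p below 0.05, the 3 smallest p-values of a list and its widest gap between control arrays. SQSTM1, BACH1, MAFG, MAFF, SLC7A11, PRDX1, TXN, MSRB3, IDH2 and the AKR1C genes were named after their values were seen. The number of arrays limits the precision. The steps were tested on simulated data. Alternatives covered normalization, variance model, test, filter, rows of a gene, pairing and each array left out.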

Additional observations from a re-analysis of the deposited data

How the results depend on the processing

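The crossed pairing and the fit on genes above the background level alone were chosen after seeing the data. No gene passed the adjusted threshold in the reported fit (0), whereas C6orf141 made it 1 with the replicate block, with crossed pairs and with trend and robust settings. Same-numbered arrays deviated in opposite directions (r = −0.271 across genes above the background level), and the block changed no call of the 9 genes. At an unadjusted p, 348 genes were higher and 358 lower; Student's t-test gave 654 and 710, the filter on the background level 67 and 78, the fit on those genes alone 155 and 164, the replicate block 299 and 326, and leaving out 1 array 209 to 925 and 244 to 668. The filter and the fit test fewer genes; otherwise the cause was not tested. The 9 genes gave 1 call, GCLC, with Student's t-test, and 0 under every other alternative. Their median log2 fold change ran from −0.12 to 0.17 with 1 array left out. NQO1 turned to −0.016 when arrays were centred on genes above the background level. With 1 array left out, log2 fold changes ranged from −0.19 to 0.091 for NFE2L2, −0.16 to 0.17 for NQO1, −0.37 to 0.25 for GCLM, −0.21 to 0.082 for TXNRD1, −0.12 to 0.43 for SRXN1, −0.13 to 0.71 for OSGIN1, −0.68 to 0.12 for CUL3, −0.0064 to 0.88 for DPP3, −0.27 to 0.36 for CHAC1, −0.26 to 0.80 for MSRB2, −0.61 to 0.83 for PGD, −0.38 to 1.02 for CYP2S1, −0.62 to 1.41 for SLC48A1 and −0.16 to 0.78 for PHGDH. A lone array was then assumed to vary like the other pair.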
